A study of Homo sapiens with 4 samples.

Results

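The mevalonate pathway from HMGCS1 to lanosterol was followed here through 9 genes, HMGCS1, MVK, PMVK, MVD, IDI1, FDPS, FDFT1, SQLE and LSS. These genes were chosen by name, for the enzymes they encode, out of 12912 genes in a table of raw RNA-seq counts. Earlier results of these data were known when the choice was made. They do not cover every step of the pathway. For FDFT1, whose symbol heads more than 1 entry of the table, the entry with the most counts was used. The cells are 786-O, a human clear cell renal cell carcinoma (ccRCC) line that has no functional VHL, the substrate receptor of the ubiquitin ligase that marks HIFα proteins for degradation. 786-O-Ctrl (control), labelled as wild type and VHL-null, was compared with 786-O-VHL (VHL-restored), in which VHL expression had been restored by a retroviral vector for HA-tagged VHL. Both sublines are of 786-OTR, which also carries a triple reporter of GFP, luciferase and thymidine kinase, and all cells grew in RPMI1640 with FBS, penicillin and streptomycin. There were 2 libraries per group, and nothing says that they came from separate cultures. P-values therefore measure the spread between these libraries, which may be technical, and the comparison is between 1 subline and another.

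The pathway builds sterols and isoprenoids from acetyl-CoA. HMGCS1 makes HMG-CoA, which is reduced to mevalonate, and MVK, PMVK and MVD then add phosphates and remove a carboxyl group to give isopentenyl diphosphate. IDI1 makes its isomer, FDPS joins these units into farnesyl diphosphate, and this product is shared between sterols and other uses such as protein prenylation, ubiquinone and dolichol. FDFT1 makes squalene, the committed step towards sterols, SQLE oxidizes it in a step that needs molecular oxygen, and LSS closes the rings to give lanosterol. Genes of the pathway are textbook targets of the transcription factor SREBP2, which is released from the endoplasmic reticulum when membrane sterols are low. ccRCC cells are known for their lipid and cholesterol ester stores.

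All 9 genes were lower in 786-O-VHL than in 786-O-Ctrl, and all 9 passed the test at a false discovery rate (FDR) under 0.05, in a comparison in which 31.9% of all genes tested were lower. The largest fall was that of LSS, to 15.1% of the 786-O-Ctrl level, and the smallest was that of PMVK, to 54.4%. HMGCS1, MVK and LSS fell more than 4-fold, and 8 of the 9, all but PMVK, fell more than 2-fold. These are the main estimates, and which genes passed a fold cut-off depended on the processing, as given at the end. For each gene, both 786-O-VHL libraries lay below both 786-O-Ctrl libraries. Counts were compared with edgeR's quasi-likelihood test over the 12335 genes that passed a filter on low counts, all 9 members among them, with Benjamini-Hochberg adjustment over these genes. Log2 fold changes are of VHL-restored over control cells, so that negative values are falls. Of all genes tested, 7.52% were lower by more than 2-fold at FDR < 0.05. At the stricter rule of a fold change over 4 with FDR < 0.01, which 3 members met, 1.54% of all genes were lower. The groups did not overlap, with 786-O-VHL lower, for 39.2% of all genes. The median log2 fold change of the 9 genes was -1.82, against 0.02 over all genes tested. In bulk RNA, less pathway mRNA in each cell and fewer cells that express it cannot be told apart.

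The libraries differed in depth, and the table heads both control columns with 1 replicate number, so they are told apart here as the deeper and the shallower library. Total counts were 22141263 and 15714166 for the control libraries, 2807779 for VHL-restored replicate 1 and 16114120 for replicate 2. Levels below are CPM, counts scaled to the library total and to edgeR's TMM factors. VHL itself stood at 42.9 and 43.9 CPM in the control libraries and at 178 and 163 CPM in VHL-restored replicates 1 and 2, so that the restored gene was higher in both libraries labelled with it (log2 fold change 1.96, standard error, SE, 0.0706, edgeR FDR = 2.86e-19). Reads of the vector and of the endogenous gene cannot be told apart in these counts. All 6 markers chosen for the line (PAX8, PAX2, EPAS1, VIM, KRT8 and KRT18) were counted in both groups, at summed levels of 3234 to 3235 CPM in control cells and 2395 to 2413 CPM in VHL-restored cells. They did not move one way. EPAS1, which encodes HIF2α, rose by 1.37 on the log2 scale, and VIM, PAX8, KRT8 and PAX2 had log2 fold changes of -1.21, -0.90, -0.56 and -0.40, all past edgeR's FDR < 0.05, while KRT18, at -0.12, did not pass the test. Their part in the results was not tested. Of 6 markers of other cell types, PTPRC, ALB and DCN have no entry in the table used here, and PECAM1, EPCAM and COL1A1 summed to 9.37 to 10.9 CPM in control cells and 14.9 to 18.3 CPM in VHL-restored cells. EPCAM, an epithelial adhesion gene, rose from 3.74 ± 0.491 to 9.44 ± 2.01 CPM (SD, n = 2 each; edgeR FDR = 4.71e-05), and its part in the results was not tested. COL1A1 did not pass the test (edgeR FDR = 0.599), and the filter removed PECAM1.

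The stretches upstream of these genes are shown because the genes moved together, and SREBP2 acts with the factor NF-Y at promoters of this pathway. RefSeq promoter windows (GRCh38.p14) were found for 7 of the 9 genes, all but FDFT1 and SQLE, with 10 annotated start sites in all. In the 250 bases before each start site, both strands were searched for the SREBP element, in the forms TCACNCCA and CACCCCAC. Also searched were the NF-Y box CCAAT, the GC box GGGCGG and the hypoxia response cores ACGTG and GCGTG. Printed is MVK, the only gene of the 7 with a searched form of the SREBP element. Also printed are HMGCS1 at its outermost start site, FDPS at the branch point, and LSS and PMVK, the genes with the largest and smallest fall. Capitals mark the SREBP element and the NF-Y box, which reads ATTGG where it lies on the other strand. The windows are chr12:109573544-109573793 on the plus strand for MVK, chr5:43313413-43313662 on the minus strand for HMGCS1, chr1:155308616-155308865 on the plus strand for FDPS, chr21:46228775-46229024 on the minus strand for LSS and chr1:154936720-154936969 on the minus strand for PMVK.
MVK: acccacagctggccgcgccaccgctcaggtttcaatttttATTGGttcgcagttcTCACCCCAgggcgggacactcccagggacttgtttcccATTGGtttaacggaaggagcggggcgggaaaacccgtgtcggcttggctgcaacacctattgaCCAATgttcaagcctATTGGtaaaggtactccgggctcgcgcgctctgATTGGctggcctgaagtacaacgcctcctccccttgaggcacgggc
HMGCS1: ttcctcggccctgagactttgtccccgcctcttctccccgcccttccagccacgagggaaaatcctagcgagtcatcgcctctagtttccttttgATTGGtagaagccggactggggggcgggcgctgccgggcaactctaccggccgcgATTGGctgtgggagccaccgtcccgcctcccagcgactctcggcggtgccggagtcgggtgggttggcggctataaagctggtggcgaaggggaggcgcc
FDPS: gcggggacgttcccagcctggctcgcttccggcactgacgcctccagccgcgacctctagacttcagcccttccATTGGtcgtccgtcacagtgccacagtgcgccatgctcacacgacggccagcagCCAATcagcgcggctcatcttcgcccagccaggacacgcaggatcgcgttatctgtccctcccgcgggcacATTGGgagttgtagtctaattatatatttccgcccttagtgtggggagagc
LSS: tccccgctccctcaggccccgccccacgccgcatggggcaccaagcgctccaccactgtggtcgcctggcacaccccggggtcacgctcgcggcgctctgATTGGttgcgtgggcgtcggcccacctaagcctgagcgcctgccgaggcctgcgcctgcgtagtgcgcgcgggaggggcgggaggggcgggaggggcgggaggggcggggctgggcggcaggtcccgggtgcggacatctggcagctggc
PMVK: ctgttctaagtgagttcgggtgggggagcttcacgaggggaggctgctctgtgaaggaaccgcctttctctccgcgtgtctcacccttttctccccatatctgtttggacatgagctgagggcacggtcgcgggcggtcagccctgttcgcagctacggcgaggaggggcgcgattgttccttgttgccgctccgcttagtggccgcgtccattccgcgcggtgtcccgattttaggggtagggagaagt

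The NF-Y box was found upstream of 6 of the 7 genes, all but PMVK. Whether the boxes go with the size of the fall was not tested. Among the 10133 genes of the count table with a window, 41.4% hold it. MVK had 5 boxes, MVD and FDPS 3 each, HMGCS1 at its outermost start site 2 and LSS 1. IDI1 had 2 at its middle and 3 at its innermost start site, of which a pair there overlap as 1 palindromic run, and none at its outermost start site. Of the forms of the SREBP element, TCACNCCA stood only upstream of MVK, from position -195 to -188 relative to the start site, against 3.88% of genes in the table. The form CACCCCAC was found upstream of none of the 7 (3.17% of genes in the table). The GC box was found upstream of all 7 (74.5% of genes in the table). Of the hypoxia response cores, GCGTG was found upstream of 6, all but MVK (53.0% of genes in the table), and ACGTG upstream of none (28.5%). Some windows of HMGCS1 and of IDI1 share bases, since their start sites lie close together. A match of these letters is a description and not a binding site, and a missing match says only that the letters are not in these windows.

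**Figure D1:**
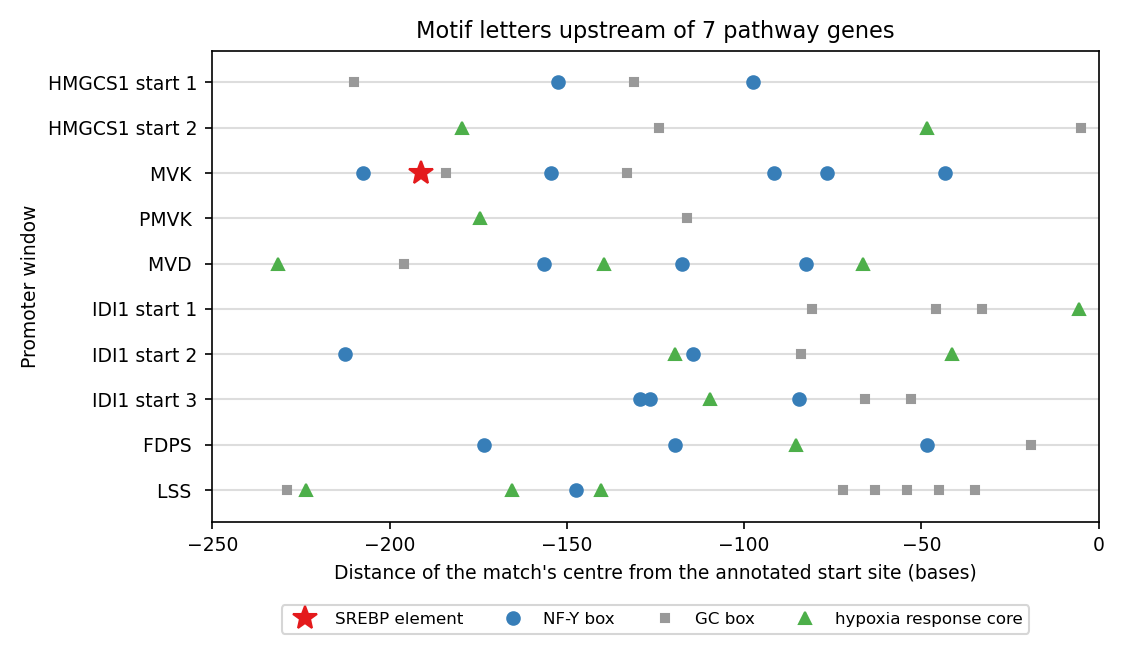
Matches of the searched motifs (symbols) in the 250 bases upstream of 10 RefSeq start sites of 7 pathway genes, by distance of the match's centre from the start site in bases. Blue circles, the NF-Y box, appear in at least 1 row of every gene but PMVK, and the single red star, the SREBP element, is in the row of MVK.

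HMGCS1 (ENSG00000112972.15), the cytosolic HMG-CoA synthase that opens the pathway, maps to chromosome 5 (GRCh37, 43287572 to 43313614, minus strand). It stood at 160 and 155 CPM in the deeper and the shallower control library and at 41.7 and 31.2 CPM in VHL-restored replicates 1 and 2. The control libraries were close together, and replicate 1 was the higher of the VHL-restored libraries. The log2 fold change was -2.23 (SE 0.0872, edgeR FDR = 1.62e-18), and 21.3% of the control level was left. Replicate 1 rests on 123 counts, whose exact 95% Poisson interval of 34.7 to 49.8 CPM lies above the value of replicate 2, and without replicate 2 the log2 fold change was -1.92.

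The kinases and the decarboxylase that follow fell by different amounts. MVK (ENSG00000110921.14), mevalonate kinase, maps to chromosome 12 (GRCh37, 110011060 to 110035930, plus strand), and overlaps MMAB, a gene on the opposite strand. MVK stood at 36.9 and 38.4 CPM in the control libraries and at 8.82 and 9.26 CPM in VHL-restored cells. Its log2 fold change of -2.03 (SE 0.129, edgeR FDR = 6.80e-14) was thus much the same whichever libraries were paired. PMVK (ENSG00000163344.6), phosphomevalonate kinase, maps to chromosome 1 (GRCh37, 154897216 to 154909195, minus strand), with no other annotated gene across it. It stood at 47.6 and 40.7 CPM in control cells and at 20.0 and 25.3 CPM in VHL-restored cells, the smallest fold among the 9 genes. The log2 fold change was -0.88 (SE 0.110, edgeR FDR = 7.27e-08), with a 95% interval from -1.10 to -0.65. MVD (ENSG00000167508.12), diphosphomevalonate decarboxylase, maps to chromosome 16 (GRCh37, 88718343 to 88729569, minus strand). It stood at 121 and 107 CPM in control cells and at 37.3 and 46.7 CPM in VHL-restored cells, and its log2 fold change was -1.36 (SE 0.0851, edgeR FDR = 5.57e-14). For PMVK and MVD, replicate 2 was the higher of the VHL-restored libraries, the opposite order from HMGCS1.

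IDI1 and FDPS lead to the branch point. IDI1 (ENSG00000067064.11), the isomerase that balances the isoprenoid building blocks, maps to chromosome 10 (GRCh37, 1085092 to 1095059, minus strand), with 1 annotated gene on each strand across part of it. It stood at 83.2 and 81.2 CPM in control cells and at 20.4 and 31.5 CPM in VHL-restored cells. The VHL-restored libraries differed most here, with an SD of 7.91 on a mean of 25.9 CPM, yet both lay far below the control libraries. The log2 fold change was -1.49 (SE 0.0971, edgeR FDR = 1.22e-13), and it was -2.02 without replicate 2 and -1.38 without replicate 1. FDPS (ENSG00000160752.14), farnesyl diphosphate synthase, maps to chromosome 1 (GRCh37, 155278539 to 155290457, plus strand), and 1 gene is annotated across it on the other strand. It stood at 112 and 114 CPM in control cells and at 42.7 and 40.0 CPM in VHL-restored cells, and its log2 fold change was -1.48 (SE 0.0765, edgeR FDR = 8.46e-16). Libraries of a group hardly differed for FDPS. The annotation holds 8 pseudogenes named after FDPS and 3 named after IDI1, and reads that such copies share with the parent gene could have been split or left out by the counting, so the levels of both genes are uncertain.

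On the sterol branch, FDFT1 is the member with the least certain level. The entry with the most counts, ENSG00000284967.1, was not found in the GRCh37 annotation used here. The other entry, ENSG00000079459.13, maps to chromosome 8 (GRCh37, 11653082 to 11696904, plus strand). FDFT1 under ENSG00000284967.1 stood at 22.4 and 22.3 CPM in control cells and at 5.09 and 6.47 CPM in VHL-restored cells, and its log2 fold change was -1.84 (SE 0.158, edgeR FDR = 4.37e-11). The other entry had only 50 and 40 counts in the control libraries and 1 and 16 counts in VHL-restored replicates 1 and 2, and its log2 fold change was -1.55 (SE 0.425, edgeR FDR = 0.00227). Both entries were thus lower in VHL-restored cells, and how reads that fit both entries were counted is not stated, so the level of this gene is uncertain.

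SQLE (ENSG00000104549.12), squalene epoxidase, maps to chromosome 8 (GRCh37, 126010739 to 126034525, plus strand). It was the member with the most counts, at 216 CPM in each of the control libraries and at 61.7 and 60.7 CPM in VHL-restored cells. Replicates were nearly equal in both groups, with SDs of 0.122 and 0.742 CPM, and the log2 fold change was -1.82 (SE 0.0705, edgeR FDR = 1.33e-18). LSS (ENSG00000160285.15), lanosterol synthase, maps to chromosome 21 (GRCh37, 47608055 to 47648738, minus strand), with 2 annotated genes on the opposite strand across parts of it. LSS stood at 34.8 and 33.7 CPM in control cells and at 4.07 and 5.40 CPM in VHL-restored cells, and its log2 fold change was -2.72 (SE 0.150, edgeR FDR = 3.26e-15), or a 6.61-fold fall. The value of VHL-restored replicate 1 rests on 12 counts, with an exact 95% Poisson interval from 2.10 to 7.11 CPM that covers counting error only, and the whole interval lies below both control libraries.

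**Figure D2:**
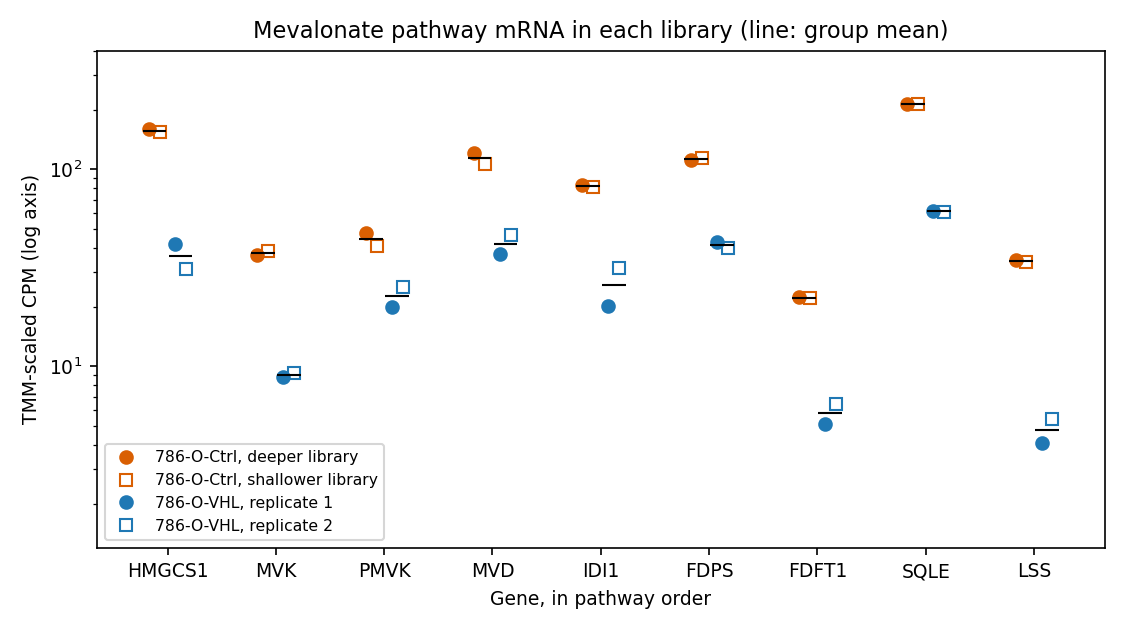
TMM-scaled CPM of the 9 genes on a log axis, in pathway order, with 1 symbol per library and a line at each group mean. In every gene both blue 786-O-VHL symbols lie below both orange 786-O-Ctrl symbols, and the blue symbols are farthest apart for IDI1, at 20.4 and 31.5 CPM.

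Ordered by log2 fold change from the lowest, the genes ran LSS, HMGCS1, MVK, FDFT1, SQLE, IDI1, FDPS, MVD and PMVK. Each gene has 4 ratios of a VHL-restored library to a control library, and these show how far the order can be read. For LSS they ran from -3.09 to -2.64 on the log2 scale and did not overlap those of HMGCS1, the next gene, at -2.36 to -1.89. All later neighbours in the order overlapped, down to MVD, at -1.69 to -1.19, and PMVK, at -1.25 to -0.69. Neighbours after LSS therefore cannot be ranked by these libraries, although the range of PMVK overlapped that of MVD alone. Among all genes tested, 0.73% had a lower log2 fold change than LSS and 9.83% had a lower one than PMVK.

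**Figure D3:**
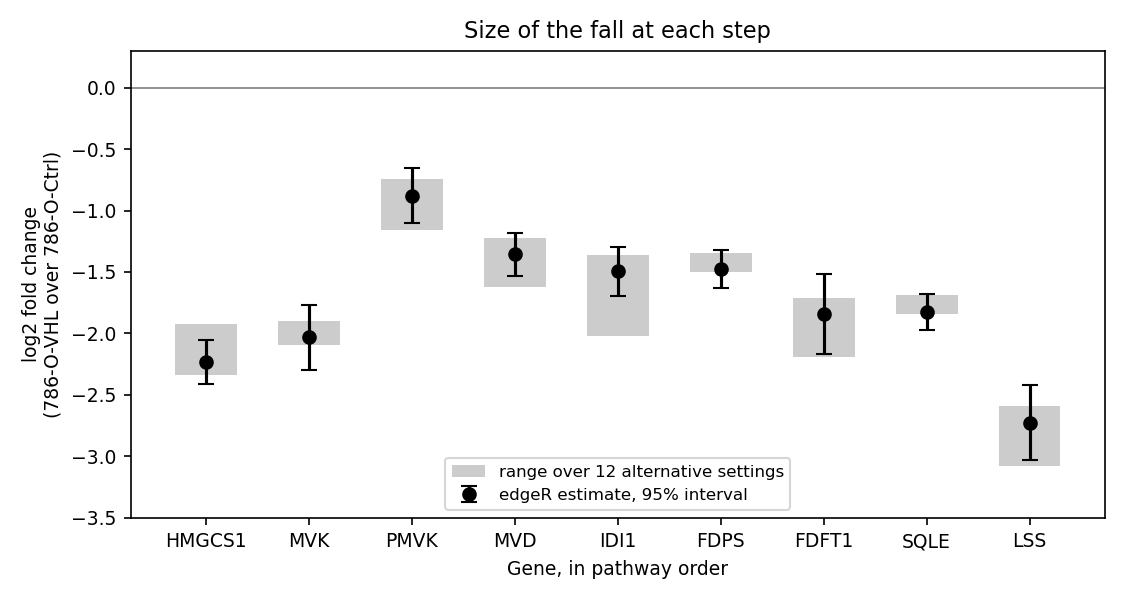
Log2 fold change of each gene, 786-O-VHL over 786-O-Ctrl, with its 95% interval from edgeR (points and bars) and the range over 12 alternative settings of the analysis (grey boxes). All boxes and intervals lie below 0, from LSS at -2.72 to PMVK at -0.88.

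Together the 9 genes took 0.0792% and 0.0774% of the counts of the control libraries and 0.0254% and 0.0268% of those of the VHL-restored libraries. Their summed level was 820 ± 17.4 CPM (SD, n = 2) in control cells and 249 ± 10.4 CPM (SD, n = 2) in VHL-restored cells, a ratio of 3.29. With 2 libraries against 2, a two-sided exact permutation test cannot go below p = 0.33, so this sum carries no test of its own. Since the genes fell by different amounts, the make-up of the sum shifted. LSS went from 4.17% of the genes' counts in each control library to 1.68% and 2.11% in VHL-restored cells, and PMVK from 5.72% and 5.03% to 8.27% and 9.86%. The share of SQLE moved little, with 25.9% and 26.7% in control cells and 25.5% and 23.7% in VHL-restored cells.

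**Figure D4:**
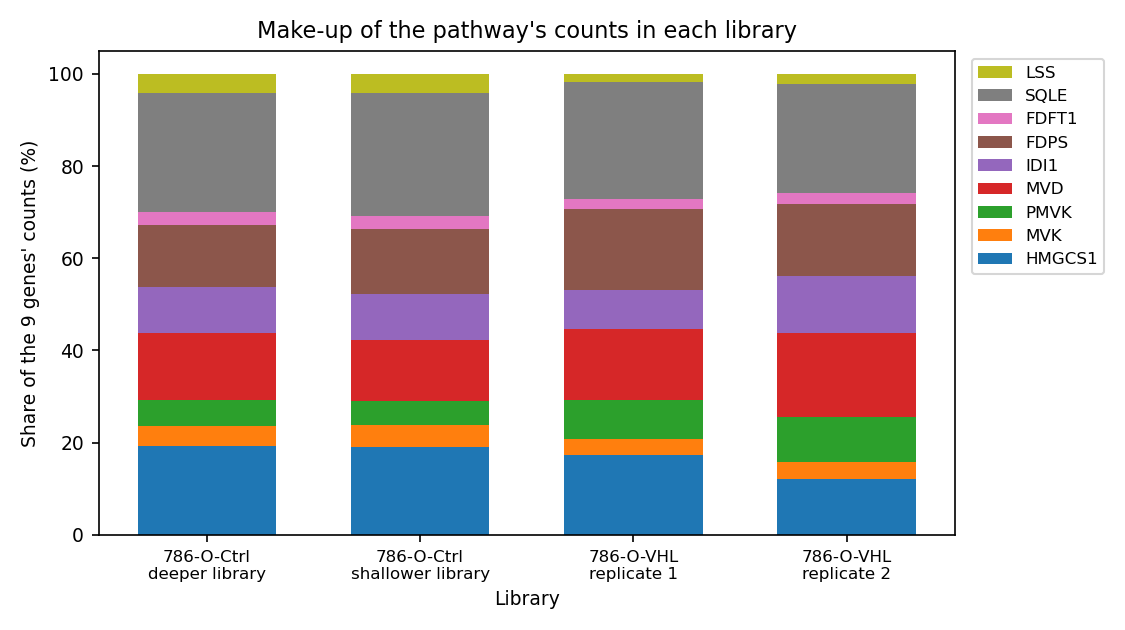
Share of each gene, in percent, of the counts of all 9 genes in each of the 4 libraries, stacked in pathway order. The bottom band, HMGCS1, falls from 19.2% in each control library to 17.3% and 12.2% with VHL, and the PMVK band is wider in 786-O-VHL.

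Levels of different genes can be set beside each other only per length, here as CPM per kilobase of the annotation's canonical transcript, for the 8 genes other than FDFT1. In 786-O-Ctrl the mean level per kilobase was highest for FDPS, at 79.8, followed by SQLE at 72.8 and MVD at 63.2, and it was lowest for LSS, at 7.01. PMVK came after MVD, and both control libraries had these first members in the same order. HMGCS1 and IDI1, at 29.4 and 30.0 per kilobase, did not differ beyond the spread of their libraries, and MVK stood at 13.3. In 786-O-VHL the mean level per kilobase was again highest for FDPS, at 29.2, and lowest for LSS, at 0.97. There MVD, PMVK and SQLE lay between 20.7 and 23.3 per kilobase, with libraries that overlapped between these genes.

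The steps on either side of the pathway were followed through lists of genes. Beside the counts below, 31.9% of all genes tested were lower and 32.6% higher. Before HMGCS1, 3 of the 4 counted genes for the supply of acetyl-CoA or acetoacetyl-CoA were lower at FDR < 0.05 and 1 was higher. Their median log2 fold change was -0.58. ACAT2, the cytosolic thiolase that makes the acetoacetyl-CoA used by HMGCS1, went from 103 ± 2.36 to 23.2 ± 0.343 CPM (SD, n = 2 each), and its log2 fold change was -2.17 (SE 0.0846). ACLY and ACAT1 had log2 fold changes of -0.68 and -0.48, and ACSS2, which makes acetyl-CoA from acetate, rose by 0.49 on the log2 scale (edgeR FDR = 9.51e-05), a call lost when all libraries were thinned to the shallowest (0.36, edgeR FDR = 0.0576). IDI2, an isoform of IDI1, has no entry in the table used here. After LSS, 8 of the 10 genes that turn lanosterol into cholesterol were lower and none was higher, with a median of -1.39. DHCR7, EBP, HSD17B7 and NSDHL had the lowest log2 fold changes there, at -2.26, -1.96, -1.78 and -1.75. The exceptions were CYP51A1, the demethylase that acts on lanosterol itself, at -0.27 (edgeR FDR = 0.150), and TM7SF2, at 0.21 (edgeR FDR = 0.497), neither of which passed the test. CYP51A1 stood at 12.4 ± 0.688 CPM in control cells and at 10.4 ± 0.172 CPM in VHL-restored cells (SD, n = 2 each), beside the far larger falls of LSS before it and MSMO1, at -1.67, after it. The annotation has 2 genes on each strand across CYP51A1, and VPS51 on the same strand across TM7SF2. Since it is not stated how reads shared with these genes were counted, the levels of both exceptions are uncertain.

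The branches that leave the pathway at or near FDPS had a median nearer to 0 than the members. Of 16 counted genes for geranylgeranyl, ubiquinone, dolichol and prenylation steps, 8 were lower and 3 were higher at FDR < 0.05, and their median was -0.21 on the log2 scale. For comparison, 31.9% of all genes tested were lower and 32.6% higher, or 25.1% and 41.2% when scaled by library totals alone. PDSS1, which builds the side chain of ubiquinone, ICMT, which methylates prenylated proteins, and DHDDS and DOLK of the dolichol branch had log2 fold changes of -1.75, -1.24, -0.89 and -0.73. GGPS1, geranylgeranyl diphosphate synthase, and PGGT1B, a subunit of a protein prenylating enzyme, rose by 0.36 and 0.34 on the log2 scale. The calls of GGPS1 and PGGT1B depended on the test, on the threshold and on single libraries. With DESeq2 both calls were lost (DESeq2 FDR = 0.162 and 0.0860), as they were at FDR < 0.01. Without the deeper control library, GGPS1 was at 0.26 (edgeR FDR = 0.266), and PGGT1B was at 0.33 without the shallower control library (edgeR FDR = 0.0854) and at 0.23 without VHL-restored replicate 1 (edgeR FDR = 0.0646). Among the genes that fell, RCE1 and ZMPSTE24, at -0.24 and -0.19, also lost their calls when single libraries were left out. No test compared the branches with the members.

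Among 7 genes that control SREBP, 4 were lower and 1 was higher, with a median log2 fold change of -0.19. Of all genes tested, 31.9% were lower and 32.6% higher. INSIG1, which holds SREBP in the endoplasmic reticulum and is itself an SREBP target, stood at 277 ± 10.7 CPM in control cells and at 21.0 ± 3.82 CPM in VHL-restored cells (SD, n = 2 each), and its log2 fold change was -3.84 (SE 0.0913), lower than that of any member. SREBF2, which encodes SREBP2, went from 337 ± 29.2 to 141 ± 5.26 CPM (SD, n = 2 each), or -1.27 on the log2 scale (edgeR FDR = 4.50e-15), and SREBF1 had a log2 fold change of -0.59. SCAP, the escort protein of SREBP, and INSIG2 did not pass the test, at 0.12 and -0.17. Of the proteases that release SREBP, MBTPS1 had a log2 fold change of -0.19 (edgeR FDR = 0.0118) and MBTPS2 of 0.37 (edgeR FDR = 0.000404). The call of MBTPS1 was lost without either control library, and that of MBTPS2 without VHL-restored replicate 2, where it stood at 0.21 (edgeR FDR = 0.199).

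**Figure D5:**
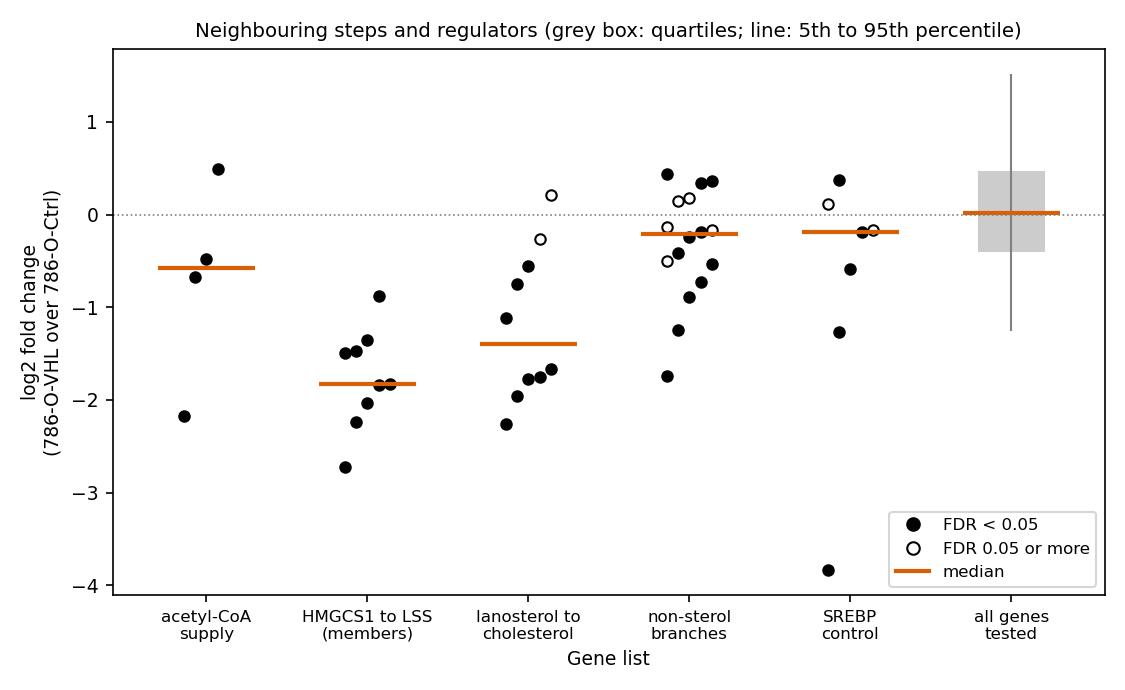
Log2 fold changes, 786-O-VHL over 786-O-Ctrl, of the genes of 5 lists (dots, filled where FDR < 0.05) with the median of each list (orange line), beside the spread of all genes tested. The medians are -1.82 for the 9 members, -1.39 for the steps from lanosterol to cholesterol, -0.21 for the non-sterol branches and -0.19 for SREBP control.

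The genes outside the pathway whose levels followed the members most closely were sought by distance. Log2(CPM + 1) values were centred for each gene over the 4 libraries, and the Euclidean distance to the mean profile of the 9 members was taken for 9226 other genes with a mean of at least 10 CPM. The nearest were SKP2, NSDHL, RRM1, DOCK10 and SLC2A1, at distances from 0.0415 to 0.0626. NSDHL encodes an enzyme between lanosterol and cholesterol, SKP2 a ubiquitin ligase subunit, RRM1 a subunit of ribonucleotide reductase and SLC2A1 a glucose transporter. SKP2 stood at 77.8 and 77.0 CPM in control cells and at 21.7 and 23.6 CPM in VHL-restored cells. The members themselves lay farther from their own mean, between 0.111 for FDFT1 and 0.892 for LSS. With 4 libraries in 2 groups, this likeness is mostly a matter of the size of the difference between groups and is given as a description.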

How the data were processed

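RNA of both sublines was extracted in duplicate and sequenced. The authors aligned reads to hg19 and deposited raw counts per gene. Their processing notes list STAR and CASAVA. No source used here gives the counting tool, its strand setting or the annotation.

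The members and gene lists were chosen with earlier results of these data known. Genes were handled by Ensembl identifier, since 75 symbols are repeated. Genes were kept by filterByExpr (minimum count 10), which removed 577 and left 12335. Counts were scaled by TMM and tested with edgeR 4.0.16 in R 4.3.3, with the group as the only term. Standard errors are those implied by the F statistic. The biological coefficient of variation was 4.31%. In 786-O-VHL replicate 1, 3 counts, the limit that a count of 0 allows, correspond to 1.02 CPM, against 0.142 to 0.199 CPM elsewhere. Poisson intervals and these limits cover counting error only, and the intervals of log2 fold changes are from the edgeR fit.

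Replicates differed by more than sampling noise (chi-square per degree of freedom 2.25 for the control and 2.76 for the VHL-restored libraries). The test was checked on counts simulated with the dispersions fitted to these libraries. There edgeR recovered 37 of 50 genes changed 1.5-fold and 48 of 50 changed 4-fold, with 10 false calls. Such a check cannot show whether the libraries stand for separate cultures. Coordinates are from GENCODE v44 mapped to GRCh37.

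All members are named. Of each list, at most 4 genes per direction were named by size among those past FDR < 0.05, with CYP51A1, TM7SF2, MSMO1, SCAP, INSIG2, RCE1 and ZMPSTE24 added after their values were seen. Some list genes are not reported here by name. The alternatives were DESeq2 1.42.0, limma-voom (limma 3.58.1), RLE size factors, library totals, 2 other filters, thinning to the shallowest library, counts summed by symbol, FDR < 0.01 and leaving out each library.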

Additional observations from a re-analysis of the deposited data

How the results depend on the processing

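All 9 members were lower at FDR < 0.05 under every alternative run, and with the stricter threshold of FDR < 0.01. Scaling by library totals alone moved the median log2 fold change of all genes to 0.15 and the share of higher genes among the calls from 50.5% to 62.1%. Under it the summed level of the members changed by -1.58 on the log2 scale in place of -1.72, and PMVK by -0.74. With a library left out, log2 fold changes ran from -1.16 to -0.78 for PMVK and from -3.08 to -2.66 for LSS. Which genes passed a fold cut-off also moved. LSS fell more than 4-fold under every setting. MVK fell short of 4-fold with library totals (-1.90) and after thinning (-1.96), and HMGCS1 without VHL-restored replicate 2 (-1.92). FDFT1 passed 4-fold after thinning (-2.19) and without replicate 2 (-2.14), and IDI1 without replicate 2 (-2.02). PMVK passed 2-fold without replicate 2 (-1.16) and without the shallower control library (-1.01). Counts of higher genes in small lists moved. For the non-sterol branches the count of 3 became 1 with DESeq2, 1 at FDR < 0.01 and 5 with library totals. For SREBP control the count of 1 became 2 with library totals, and it ranged from 0 to 1 with a library left out. For the supply of acetyl-CoA or acetoacetyl-CoA the count of 1 became 0 after thinning. Counts of lower genes moved as well. For the non-sterol branches the count of 8 became 9 with limma-voom, and 6 with DESeq2, with library totals, after thinning and at FDR < 0.01. For SREBP control the count of 4 became 3 with library totals, after thinning and at FDR < 0.01. The cause of these shifts was not tested. No paired analysis was possible because both 786-O-Ctrl columns of the count table carry the same replicate number. Among the 9 members, LSS and FDFT1 rest on the fewest counts, with 12 and 15 in 786-O-VHL replicate 1, and of the list genes named, PDSS1, HSD17B7 and TM7SF2 had 10 to 11 there.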
